A study of Mus musculus with 12 samples.

Results

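The genes described here code for the mitochondrial respiratory chain and the enzyme that makes ATP from it. They were a named set of 47 genes, chosen by function, and 45 of them had a probe set with a single gene symbol on the array, of 18194 genes so represented. Ndufs6 and Cox7b had none and are not described. The 45 genes comprised 23 of complex I, 4 of complex II, 6 of complex III, cytochrome c, 6 of complex IV and 5 of complex V, each read from the probe set with its highest mean log2 signal. Total RNA from lung was hybridised to 12 Affymetrix 3-prime expression arrays, 1 sample per array and 3 per group. The groups were knockout-labelled mice after cecal ligation and puncture (CLP), knockout-labelled mice after sham surgery, wild-type mice after CLP, and wild-type mice after sham surgery. CLP lets gut bacteria leak into the abdomen and is a model of sepsis. All mice were 8 to 10 weeks old and all lungs were taken 8 h after surgery. PPTA, the gene named in the knockout label, is an older name of Tac1, which codes for the precursor of substance P. The wild type was Balb/c, while the labels give no strain for the knockout, so that strain and genotype cannot be told apart. The labels speak of triplicates without saying whether these were separate animals, so each p-value reflects only the scatter among these samples, which may be technical.

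The respiratory chain sits in the inner mitochondrial membrane. Complex I takes electrons from NADH and complex II takes them from succinate, and both pass them to ubiquinone. Complex III hands them on to cytochrome c, and complex IV delivers them to oxygen. The proton gradient that complexes I, III and IV build up drives complex V, the ATP synthase. All genes described here lie in the nucleus, while a few core subunits are coded by mitochondrial DNA. Impaired mitochondrial respiration has been described in several organs in sepsis, and alveolar type 2 cells, which make surfactant, are rich in mitochondria.

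The Tac1 signal went against the labels. The brighter probe set lay between 337 and 462 in knockout-labelled CLP and between 379 and 530 in knockout-labelled sham. Wild-type lungs gave 3.95 to 16.1 after CLP and 2.80 to 8.34 after sham surgery. A second lay between 1.26 and 16.0 on all 12 arrays, and the sources used here do not say whether either lies in the deleted part. The mice are therefore called knockout-labelled throughout, and the wild-type name also follows the labels. Every direction between genotypes would turn round if the labels were swapped. Correlations between arrays of a group ran from 0.952 to 0.973 in knockout-labelled CLP and from 0.937 to 0.981 in knockout-labelled sham, against 0.985 in wild-type CLP and at least 0.983 in wild-type sham. The third knockout-labelled sham array differed from the other two of its group: its summed alveolar macrophage markers were at 16046, against 7739 and 8103, and its summed neutrophil markers at 27006, against 10984 and 15458. The alveolar type 2 markers that define the labelled tissue were present, with a summed signal between 44556 and 51185 over all 12 arrays.

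Of the 45 genes, 34 had at least 1 promoter in the RefSeq table of assembly GRCm38.p6, 38 promoters in all, each covering 250 bases before to 50 bases after the gene's start. The promoters of the genes that passed a test below and had a single promoter are shown because binding sites of nuclear respiratory factor 1 (NRF1), YY1, GABP and estrogen-related receptors are the textbook controls of these genes. Capitals mark matches, on either strand, to GCATGCGC (NRF1), AAGATGGCG (YY1), CCGGAAG (the core of ETS factors such as GABP) or CAAGGTCA (estrogen-related receptors). All are written in the direction of the gene.
Ndufs4, chr13:114388045-114388344, minus strand: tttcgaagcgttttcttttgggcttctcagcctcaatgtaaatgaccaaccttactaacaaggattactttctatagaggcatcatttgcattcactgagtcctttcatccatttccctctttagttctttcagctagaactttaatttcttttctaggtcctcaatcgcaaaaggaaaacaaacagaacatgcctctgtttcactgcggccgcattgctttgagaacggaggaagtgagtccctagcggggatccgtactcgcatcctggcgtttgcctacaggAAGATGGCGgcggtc
Ndufs7, chr10:80249199-80249498, plus strand: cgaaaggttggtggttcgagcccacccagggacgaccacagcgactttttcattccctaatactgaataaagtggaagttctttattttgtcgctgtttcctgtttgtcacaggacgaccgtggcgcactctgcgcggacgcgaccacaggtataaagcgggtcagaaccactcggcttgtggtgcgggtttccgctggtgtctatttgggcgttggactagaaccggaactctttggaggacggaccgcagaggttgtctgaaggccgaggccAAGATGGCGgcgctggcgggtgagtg
Ndufa8, chr2:36049289-36049588, minus strand: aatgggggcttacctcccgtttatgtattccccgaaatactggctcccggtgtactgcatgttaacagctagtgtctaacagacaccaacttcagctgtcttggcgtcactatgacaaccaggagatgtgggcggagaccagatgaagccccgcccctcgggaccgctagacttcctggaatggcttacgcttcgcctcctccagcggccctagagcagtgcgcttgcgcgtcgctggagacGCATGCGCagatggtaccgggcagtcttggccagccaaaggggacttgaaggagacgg
Sdhb, chr4:140961021-140961320, plus strand: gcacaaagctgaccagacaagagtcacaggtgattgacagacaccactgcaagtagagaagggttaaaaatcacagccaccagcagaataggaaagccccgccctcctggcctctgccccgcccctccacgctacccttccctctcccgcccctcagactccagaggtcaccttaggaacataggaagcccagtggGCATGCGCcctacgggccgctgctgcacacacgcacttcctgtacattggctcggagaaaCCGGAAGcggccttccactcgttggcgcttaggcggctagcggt
Cycs, chr6:50566520-50566819, minus strand: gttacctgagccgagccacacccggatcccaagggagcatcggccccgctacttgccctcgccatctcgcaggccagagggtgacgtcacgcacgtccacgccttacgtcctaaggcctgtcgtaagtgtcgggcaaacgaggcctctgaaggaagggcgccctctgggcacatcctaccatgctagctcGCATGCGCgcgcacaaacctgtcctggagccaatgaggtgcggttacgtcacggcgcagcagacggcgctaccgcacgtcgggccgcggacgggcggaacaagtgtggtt
Cox5b, chr1:36691237-36691536, plus strand: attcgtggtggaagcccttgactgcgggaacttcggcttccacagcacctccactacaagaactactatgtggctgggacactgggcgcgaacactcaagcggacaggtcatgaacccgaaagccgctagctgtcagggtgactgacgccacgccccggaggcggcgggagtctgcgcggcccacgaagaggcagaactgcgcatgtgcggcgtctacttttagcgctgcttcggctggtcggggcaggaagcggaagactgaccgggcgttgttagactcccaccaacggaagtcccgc
Cox7c, chr13:86046746-86047045, minus strand: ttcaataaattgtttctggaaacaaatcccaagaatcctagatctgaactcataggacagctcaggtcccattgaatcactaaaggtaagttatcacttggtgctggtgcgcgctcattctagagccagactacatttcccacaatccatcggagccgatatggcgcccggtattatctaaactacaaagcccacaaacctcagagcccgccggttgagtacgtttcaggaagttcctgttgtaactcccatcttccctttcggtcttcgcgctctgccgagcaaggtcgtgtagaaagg

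Counted from 0 at the gene's start, the NRF1 match began at -60 in Cycs, at -54 in Sdhb and at -8 in Ndufa8. The YY1 match began at 35 in Ndufs4 and at 24 in Ndufs7, and Sdhb also held the ETS match at 6. The windows of Cox5b and Cox7c held none of these letters. Over the 38 promoters, the NRF1 letters were found in 5 (13.2%, against 2.71% of all 32851 promoters in the table). This form was chosen after a longer NRF1 form, which contains it, had matched 1 promoter (2.63%, against 0.971%). The letters of these motifs do not otherwise contain each other. The YY1 letters were found in 3 promoters (7.89%, against 1.4%), those of Ndufs4, Ndufs7 and Ndufa9. The ETS letters were found in 6 (15.8%, against 8.86%), and the estrogen-related receptor letters in 1, that of Sdhd (2.63%, against 1.56%). Over the 21262 promoters of protein-coding genes alone, the shares were 3.51% for the NRF1 letters (1.33% for the longer form) and 1.83% for YY1. They were 11.6% for ETS and 1.34% for the estrogen-related receptors.

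Every one of the 45 was above the array median on all 12 arrays and passed the filter on low signals. Their median signal was 1265, against 136 for all probe sets tested. The median SD of log2 signal within groups was 0.0758, against 0.172 for all. Each of the 45 genes was read from its brightest probe set, while the figures for all include dim probe sets, so these values and the interval widths given below are not compared like for like. The median level of the 45 genes on each array stayed between -0.05 and 0.06 log2 of the wild-type sham mean on all 12 arrays. In whole tissue, fewer cells of a type and less RNA per cell cannot be told apart.

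After CLP in knockout-labelled lungs, 3 of the 45 genes rose (Ndufs4, Cycs and Cox5b), 2 fell (Ndufs7 and Cox7c) and 40 did not pass the test, at an adjusted p under 0.05 in limma's moderated test over 24574 probe sets. Of all probe sets tested, 10.4% rose and 18.8% fell, 29.2% in either direction. Without adjustment 9 of the 45 had a p under 0.05, against 41.5% of all probe sets. The median change of the 45 was -0.01 log2, against -0.12 for all tested, and 33 of the 45 lay above that median of all. Their changes ran from -0.95 to 0.27, and all but Cox7c lay between -0.37 and 0.27, while the middle 80% of all probe sets ran from -0.80 to 0.52. The 95% interval of the change lay within 1.5-fold for 44 of the 45 genes (97.8%) and for 32.8% of all probe sets, dim ones included. The median standard error was 0.0874 for the 45 genes and 0.187 for all. Over all probe sets 2553 rose and 4619 fell. With each array centred on its median these counts were 3889 and 2983, the median of all was 0.01 and that of the 45 genes 0.12, with 11 of them called higher and 1 lower. Quantile normalisation put the median of the 45 genes at -0.12, with 0 called higher and 7 lower, against -0.03 for all, so that the direction of their median depends on the scaling. With only the 2 groups compared in the model, none of the 5 genes passed (adjusted p 0.082 to 0.19), while 1112 probe sets rose and 1557 fell over the whole array. With single arrays left out, none rose without array 2 of the CLP group or without array 1 or 2 of the sham group, 5 rose without array 3 of the sham group, and 1 rose without array 3 of the CLP group or without any 1 of the 6 wild-type arrays. The falls numbered 5 without array 1 of the CLP group and 1 without array 1 or 2 of the sham group.

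After CLP in wild-type lungs none of the 45 genes passed limma's test, and none had an unadjusted p under 0.05, against 8.48% of all probe sets. Of all probe sets 0.814% rose and 0.134% fell, 0.948% in either direction. The changes ran from -0.17 to 0.11 log2 with a median of -0.00, against -0.05 for all, and the 95% interval lay within 1.5-fold for 44 of the 45 (53.6% of all). No other setting tried gave a call among them, including each array left out in turn. The difference between the 2 responses was called for none of the 45 genes in limma's test (3 at an unadjusted p under 0.05, against 22.6% of all), where 1.69% of all probe sets were called higher and 2.36% lower, 4.05% in either direction. That difference had a 95% interval within 1.5-fold for 40 of the 45 genes and for 19% of all.

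**Figure D1:**
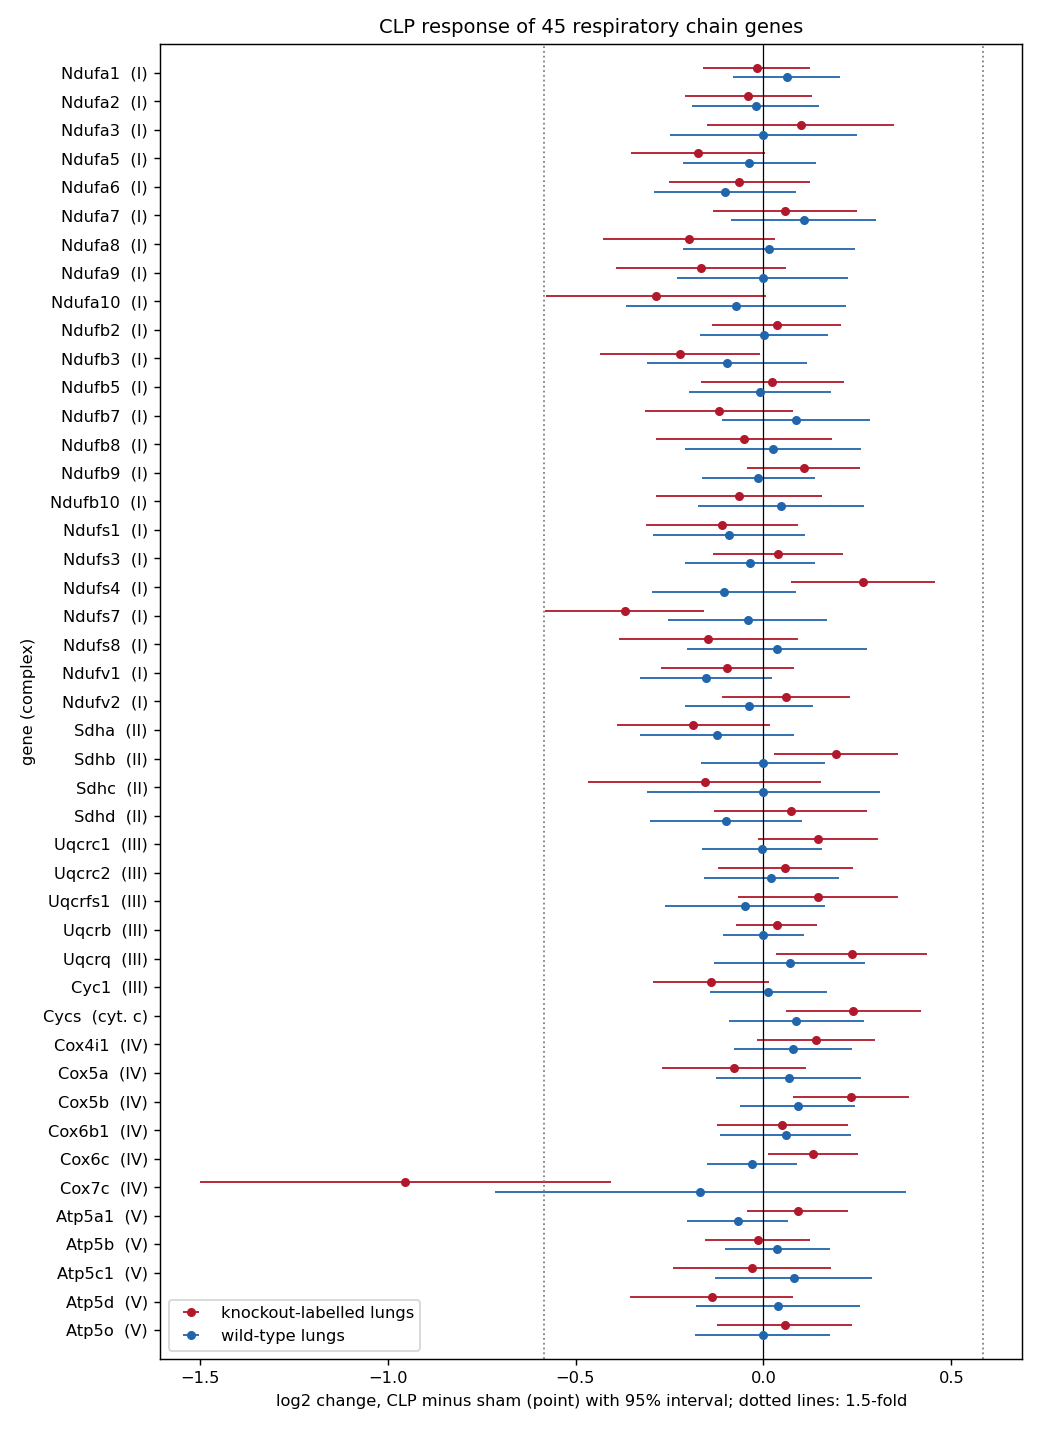
Log2 change after CLP, relative to sham surgery, of the 45 respiratory chain genes by complex, with 95% intervals, in knockout-labelled (red) and wild-type (blue) lungs; dotted lines mark 1.5-fold. Apart from Cox7c in knockout-labelled lungs (-0.95), every point lies between -0.37 and 0.27.

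**Figure D2:**
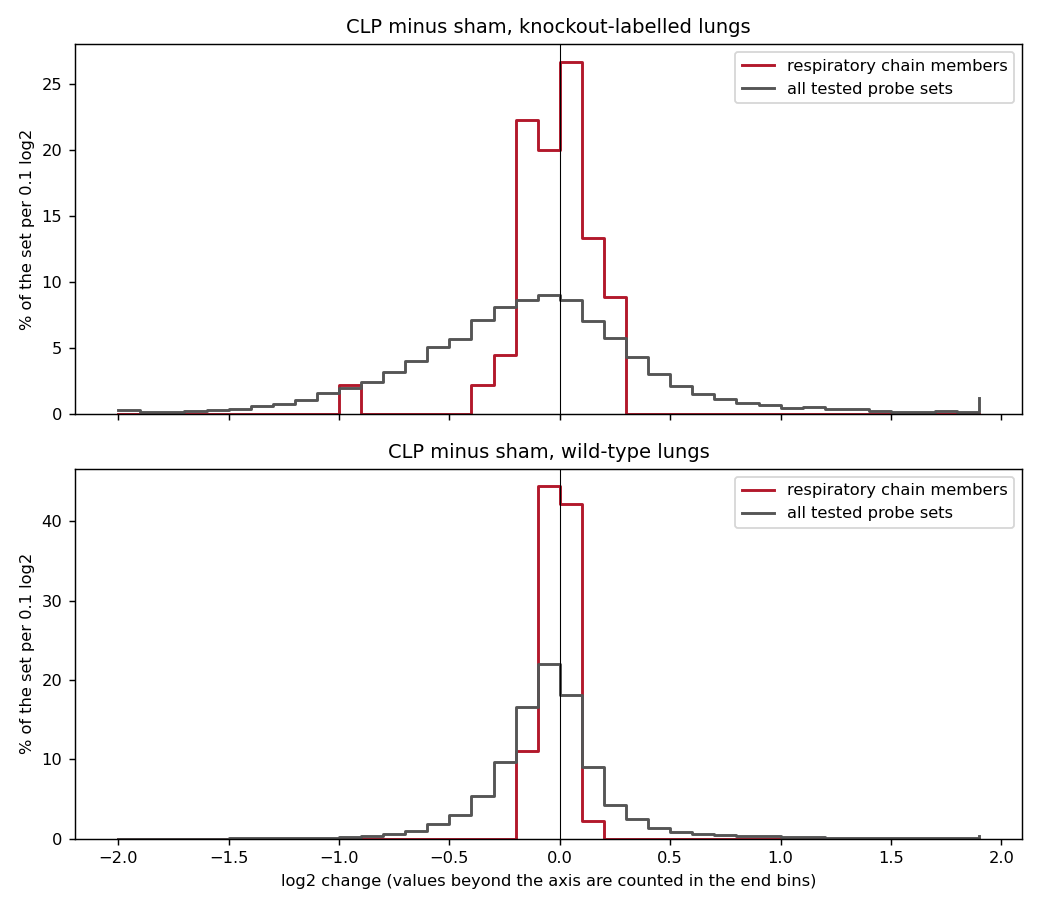
Distribution of log2 changes after CLP in knockout-labelled lungs (top) and wild-type lungs (bottom), as the percentage of each set per 0.1 log2, for the 45 respiratory chain genes (red) and all 24574 probe sets tested (grey). The respiratory chain genes gather around 0 in both panels, with medians of -0.01 and -0.00.

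Complex I held 1 gene that rose and 1 that fell among 23 after CLP in knockout-labelled lungs, with a median change of -0.06. Ndufs4, an accessory subunit at the NADH-oxidising end that is needed for a stable complex, had signals of 572, 575 and 562 in knockout-labelled CLP and 472, 442 and 508 in knockout-labelled sham. In wild-type lungs it had 441, 463 and 489 after CLP and 492, 503 and 502 after sham surgery. All 3 knockout-labelled CLP arrays were above the other 9 arrays, while wild-type CLP arrays were all below wild-type sham arrays. Ndufs4 rose by 0.27 ± 0.089 log2 (SE; adjusted p = 0.04) in knockout-labelled lungs and changed by -0.10 in wild-type lungs (adjusted p = 0.87). The difference of the responses was 0.37 ± 0.13 (adjusted p = 0.11). The rise rests on 1 of 4 probe sets: the 3 dimmer ones gave -0.57 to 0.13 with none called, and the mean of all 4 gave -0.06 (adjusted p = 0.73). With quantile normalisation it was not called (adjusted p = 0.064). It was called in 1 of the 12 fits that each left out 1 array, when the third knockout-labelled sham array was left out (adjusted p = 0.016). Its adjusted p was highest, 0.13, when the second was left out.

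Ndufs7, which holds the last iron-sulfur cluster on the way to ubiquinone, had signals of 833, 798 and 704 in knockout-labelled CLP and 949.9, 1029 and 1035 in knockout-labelled sham. In wild-type lungs it had 826, 951 and 956 after CLP and 993, 869 and 951 after sham surgery. The knockout-labelled groups did not overlap and the wild-type groups did. It fell by 0.37 ± 0.097 log2 in knockout-labelled lungs (SE; adjusted p = 0.014), against -0.04 in wild-type lungs (adjusted p = 0.98). A second probe set gave -0.36 (adjusted p = 0.0086), and the fall was called in all 12 fits that left out an array. With arrays centred on their medians it was -0.24 (adjusted p = 0.086).

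The other 21 genes of complex I did not pass in knockout-labelled lungs, and lay between -0.29 and 0.11 log2. Ndufa1, a small subunit of the membrane arm, moved least, with 3238, 3325 and 3065 in knockout-labelled CLP and 3223, 3356 and 3168 in knockout-labelled sham (-0.02 log2). Ndufa10, an accessory subunit of the membrane arm, had 849, 802 and 560.5 in knockout-labelled CLP and 935, 883 and 840.0 in knockout-labelled sham. Its -0.29 log2 (adjusted p = 0.13) included array 3 of the CLP group, the lowest of all 12 for this gene. Ndufv1, which binds NADH, and Ndufs1, the largest iron-sulfur subunit, changed by -0.10 and -0.11 in knockout-labelled lungs and by -0.15 and -0.09 in wild-type lungs. Ndufv1 arrays did not overlap in the wild type, with 760.2, 789.6 and 762 after CLP and 886, 824 and 862 after sham surgery (adjusted p = 0.69). The highest wild-type change in complex I was that of Ndufa7, 0.11 (adjusted p = 0.86).

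None of the 4 genes of complex II, the succinate dehydrogenase shared with the citric acid cycle, passed for CLP in either genotype. Sdhb, the iron-sulfur subunit, had 1952, 1969 and 1746 in knockout-labelled CLP and 1644, 1565 and 1747 in knockout-labelled sham, overlapping on 1 array each (0.19 log2, adjusted p = 0.075). Sdha, the flavoprotein that oxidises succinate, changed by -0.19 (adjusted p = 0.15), while its dimmer probe sets were called at -0.42 (adjusted p = 0.0061) and -1.09 (adjusted p = 0.036). Sdhc and Sdhd, the membrane anchors, changed by -0.16 and 0.07. In wild-type lungs Sdhd arrays did not overlap, with 735, 714 and 767 after CLP and 808, 769 and 795 after sham surgery (-0.10 log2, adjusted p = 0.89).

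None of the 6 genes of complex III passed for CLP in either genotype. In knockout-labelled lungs 5 of them were positive, with a median of 0.10, and Cyc1, the cytochrome of the complex that reduces cytochrome c, was negative (-0.14, adjusted p = 0.16). Uqcrq, a small membrane subunit, had 1185, 1366 and 1179 in knockout-labelled CLP and 1044, 1031 and 1086 in knockout-labelled sham, without overlap (0.23 log2, adjusted p = 0.074). Uqcrb, a subunit that helps to bind ubiquinone, moved least, with 6464, 6526 and 6763 in knockout-labelled CLP and 6238, 6483 and 6559 in knockout-labelled sham (0.04 log2), and by -0.00 in wild-type lungs. The core subunits Uqcrc1 and Uqcrc2 changed by 0.14 and 0.06 in knockout-labelled lungs. Uqcrfs1, the Rieske iron-sulfur protein, changed by 0.14 in knockout-labelled and -0.05 in wild-type lungs, also without a call.

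Cycs, cytochrome c, carries electrons to complex IV and starts caspase activation when it leaks into the cytosol. It had 2981, 3149 and 3476 in knockout-labelled CLP and 2456, 2767 and 2917 in knockout-labelled sham, with all CLP arrays above all sham arrays. Wild-type lungs gave 2365, 2262 and 2521 after CLP and 2325, 2177 and 2221 after sham surgery, which overlap. It rose by 0.24 ± 0.083 log2 in knockout-labelled lungs (SE; adjusted p = 0.047), against 0.09 in wild-type lungs (adjusted p = 0.89). Of its 3 tested probe sets, the other two gave 0.24 (adjusted p = 0.092) and 0.00 (adjusted p = 0.99). The call remained in 2 of the 12 fits that left out an array, and its adjusted p was highest, 0.17, when the first knockout-labelled sham array was left out. The rise was 0.098 under quantile normalisation (adjusted p = 0.31), 0.37 with centred arrays (adjusted p = 0.0078), and not called with averaged probe sets (adjusted p = 0.64).

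In complex IV, cytochrome c oxidase, 1 of 6 genes rose and 1 fell in knockout-labelled lungs. Cox5b, a structural subunit that faces the matrix, had 3153, 3216 and 3158 in knockout-labelled CLP and 2599, 2748 and 2761 in knockout-labelled sham, without overlap. In wild-type lungs it had 2902, 2891 and 3165 after CLP and 2848, 2571 and 2999.8 after sham surgery, which overlap. It rose by 0.23 ± 0.071 log2 in knockout-labelled lungs (SE; adjusted p = 0.027), against 0.09 in wild-type lungs (adjusted p = 0.85). Its 3 other bright probe sets gave 0.16 to 0.20 without a call, and the call remained in 8 of the 12 fits that left out an array (lost without array 2 or 3 of the CLP group or array 1 or 2 of its sham group, highest adjusted p 0.086). It was 0.10 under quantile normalisation (adjusted p = 0.21) and 0.36 with centred arrays (adjusted p = 0.0047). The mean of its 5 tested probe sets, 1 of them dim, gave 0.10 (adjusted p = 0.55).

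Cox7c, a small membrane subunit, was read from a dim probe set, with 57.4, 50.2 and 56.2 in knockout-labelled CLP and 142, 140.5 and 63.9 in knockout-labelled sham. In wild-type lungs it had 105, 118 and 90.3 after CLP and 124, 102 and 128 after sham surgery. The 3 knockout-labelled CLP arrays were the lowest of all 12, and the third knockout-labelled sham array lay close to them and below its group. It fell by 0.95 ± 0.25 log2 in knockout-labelled lungs (SE; adjusted p = 0.014), against -0.17 in wild-type lungs (adjusted p = 0.96). When that array was left out the change was -1.32 (adjusted p = 1.1e-04), the largest of the 12 such fits. It lost the call when the first or the second sham array was left out (adjusted p = 0.060 and 0.063). The probe set's name carries the suffix for probes shared with other transcripts, and the gene's other probe set gave -0.56 (adjusted p = 0.13). The lowest signal of any other respiratory chain gene on any array was 390. Cox6c, a small subunit, had 4104, 4009.6 and 4011 in knockout-labelled CLP and 3648, 3822 and 3606 in knockout-labelled sham, without overlap and without a call (0.13 log2, adjusted p = 0.093). Cox4i1 and Cox5a, nuclear-coded subunits that associate early in assembly, changed by 0.14 and -0.08. Cox6b1, which joins the dimer, moved least of complex IV in knockout-labelled lungs, by 0.05, with 4675, 4369 and 4171 after CLP and 3786, 4429 and 4572 after sham surgery.

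None of the 5 genes of complex V passed for CLP in either genotype. Atp5b, the catalytic beta subunit, moved least in knockout-labelled lungs, with 3534, 3631 and 3662 after CLP and 3506, 3614 and 3824 after sham surgery (-0.01 log2). Atp5a1, the alpha subunit, had 2236, 2283 and 2209 in knockout-labelled CLP and 2168, 2139 and 2011 in knockout-labelled sham. Wild-type lungs gave 2067, 2049.6 and 2137 after CLP and 2171, 2183 and 2204 after sham surgery. The arrays did not overlap in either genotype and lay in opposite directions, at 0.09 log2 in knockout-labelled and -0.07 in wild-type lungs, which the test of the difference did not call (0.16 ± 0.087, SE, adjusted p = 0.30). A second probe set of nearly the same brightness gave -0.17 in knockout-labelled and -0.04 in wild-type lungs, also uncalled. Atp5c1 and Atp5d, of the central stalk, and Atp5o, of the peripheral stalk, changed by -0.03, -0.14 and 0.06 in knockout-labelled lungs.

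Counting only whether the arrays of both groups overlapped, CLP arrays were all higher than sham arrays for 8 of the 45 genes and all lower for 7 in knockout-labelled lungs, where 13% and 23.1% of all probe sets were. In wild-type lungs 0 were all higher and 4 all lower (Ndufs4, Ndufv1, Sdhd and Atp5a1), against 9.35% and 15% of all probe sets.

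**Figure D3:**
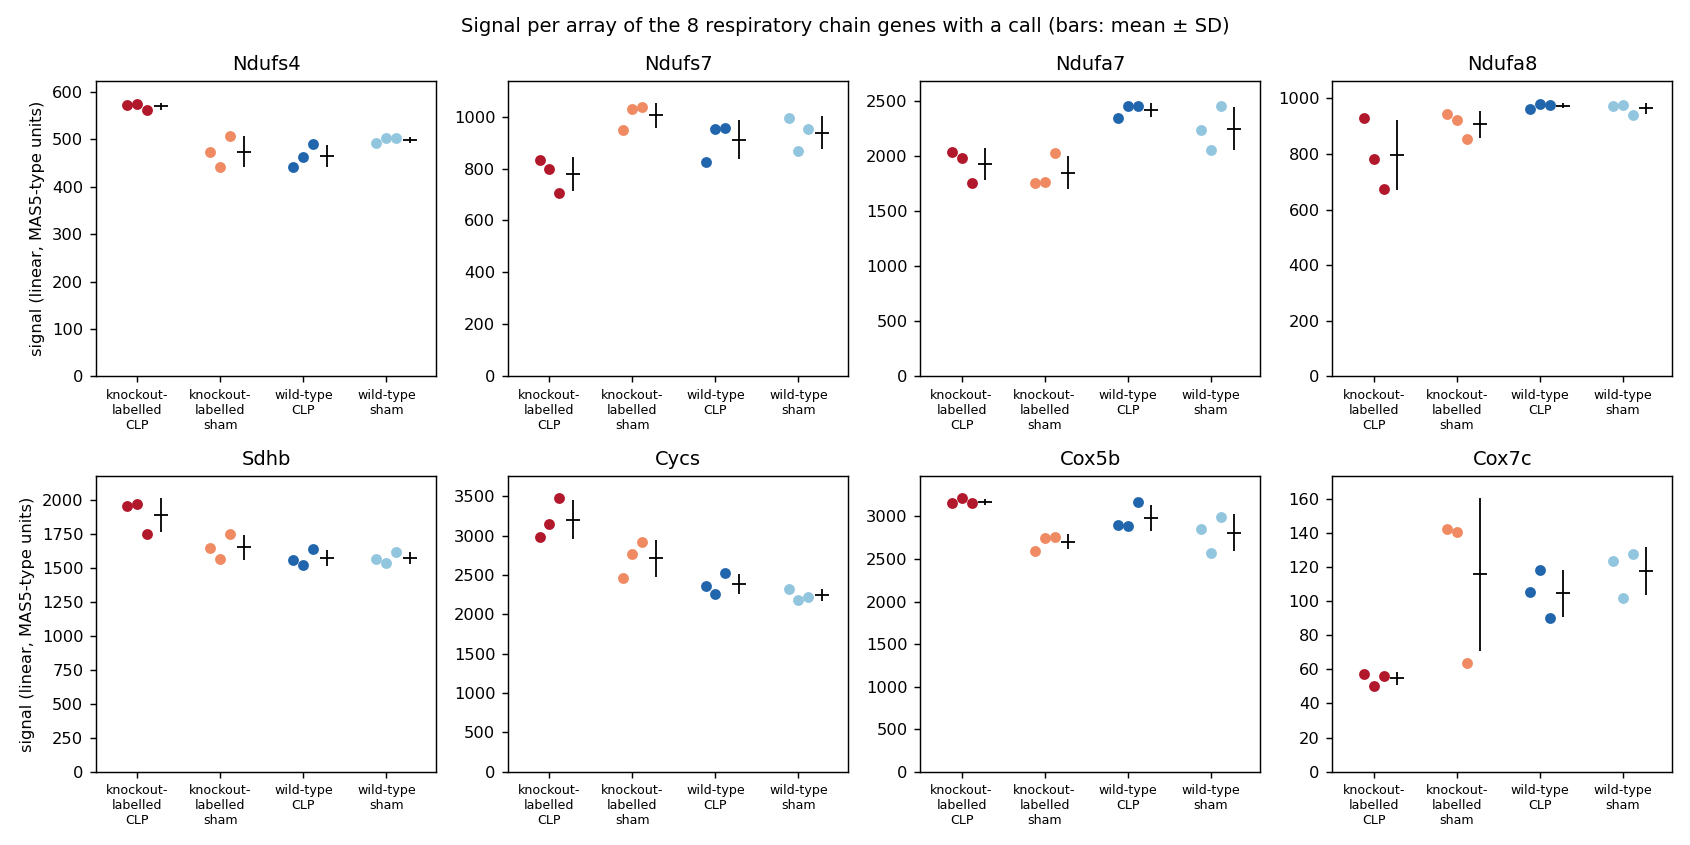
Signal on each of the 12 arrays (linear units, from 0) of the 8 respiratory chain genes that passed a test in at least 1 comparison, with mean ± SD beside each group of 3. Cycs is higher on every knockout-labelled CLP array than on every wild-type array, and 1 of 3 knockout-labelled sham arrays of Cox7c, at 63.9, lies near the knockout-labelled CLP arrays.

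Between genotypes, in septic lungs 3 of the 45 genes were higher in knockout-labelled than in wild-type mice (Cycs, Sdhb and Ndufs4) and 3 were lower (Ndufa7, Ndufa8 and Cox7c). Of all probe sets 12.6% were higher and 16.9% lower, 29.5% in either direction. Without adjustment 11 of the 45 had a p under 0.05, against 41.3% of all, and the median difference was -0.00 log2, against -0.05 for all. Alveolar macrophage markers (6 of 10 higher, 1 lower), endothelial markers (5 of 10 lower) and alveolar type 2 markers (3 of 9 lower, none higher) differed in the same comparison. Their sums are given at the end, and their part in these calls was not tested. This comparison shares its knockout-labelled CLP arrays with that of CLP against sham surgery, where Ndufs4, Cycs and Cox7c were also called. Left-out arrays changed the counts: 1 was higher without array 2 of knockout-labelled CLP or array 1 or 2 of wild-type CLP, none was lower without array 2 of wild-type CLP, and 1 was lower without array 2 or 3 of knockout-labelled CLP or array 1 or 3 of wild-type CLP.

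Cycs had the lowest adjusted p of the 45. It averaged 3202 ± 252 in knockout-labelled CLP and 2382 ± 130.4 in wild-type CLP (SD, n = 3 each), a difference of 0.42 ± 0.083 log2 (SE; limma adjusted p = 0.0028). All 3 of its tested probe sets were called (0.39 to 0.43), as was the difference in each of the 12 fits that left out an array. After sham surgery Cycs averaged 2713 ± 235 in knockout-labelled and 2241 ± 76.2 in wild-type lungs (SD, n = 3 each), without overlap but without a call (0.27 log2, limma adjusted p = 0.064), though 1 dimmer probe set was called there (0.39, adjusted p = 0.035).

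Sdhb had 1952, 1969 and 1746 in knockout-labelled CLP against 1558, 1519 and 1639 in wild-type CLP, without overlap (0.26 ± 0.076 log2, SE, adjusted p = 0.021). Ndufs4, with the signals given above, differed by 0.29 ± 0.089 (adjusted p = 0.026) on 1 of 4 probe sets, and the mean of the 4 gave -0.13 (adjusted p = 0.44). Sdhb, Ndufs4 and Cox7c each lost the call without array 2 of knockout-labelled CLP or without array 1 or 2 of wild-type CLP, and kept it in the other 9 fits that left out an array. Their highest adjusted p-values were 0.083 for Sdhb, 0.098 for Ndufs4 and 0.078 for Cox7c.

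Ndufa7, an accessory subunit of complex I, had 2041, 1980.5 and 1762 in knockout-labelled CLP against 2344, 2458 and 2458 in wild-type CLP, without overlap. After sham surgery it had 1759, 1771 and 2028 in knockout-labelled and 2242, 2061 and 2454 in wild-type lungs. The knockout-labelled arrays were below the wild-type arrays after both surgeries. The difference was -0.33 ± 0.089 log2 after CLP (SE; adjusted p = 0.015) and -0.28 after sham surgery (adjusted p = 0.073). It lost the call without array 3 of knockout-labelled CLP or array 2 or 3 of wild-type CLP (highest adjusted p 0.056). Its 5 probe sets differed in sign: 4 gave -0.33 to -0.15 after CLP, and the dimmest gave 0.30 (adjusted p = 0.047). After sham surgery another probe set of nearly the same brightness was called (-0.39, adjusted p = 0.015), and the dimmest gave 0.27 (adjusted p = 0.14). Ndufa8, an accessory subunit on the outer face of the membrane arm, had 928, 783 and 676 in knockout-labelled CLP against 963, 981 and 977 in wild-type CLP. Its -0.30 ± 0.11 log2 (SE; adjusted p = 0.046) held in 2 of the 12 fits that left out an array, and the highest adjusted p was 0.16, without array 3 of knockout-labelled CLP. Its adjusted p was 0.074 with centred arrays and 0.096 with only the groups compared. Cox7c differed by -0.89 ± 0.25 (SE; adjusted p = 0.019), with 57.4, 50.2 and 56.2 in knockout-labelled against 105, 118 and 90.3 in wild-type CLP.

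After sham surgery none of the 45 genes passed limma's test between genotypes (6 at an unadjusted p under 0.05, against 22.9% of all), where 4.48% of all probe sets were higher and 3.86% lower, 8.34% in either direction. The lowest adjusted p-values were those of Cycs, of Ndufs3 and of Ndufa7. Ndufs3, a core subunit of the electron-transferring arm, had 821, 811 and 767 in knockout-labelled and 978, 912 and 974 in wild-type lungs after that surgery, without overlap (-0.25 log2, adjusted p = 0.071). Arrays of the knockout-labelled mice were all higher for 5 of the 45 genes and all lower for 6 after sham surgery, where 15.3% and 14.3% of all probe sets were. After CLP these counts were 9 and 6, where 20.6% and 26.5% of all probe sets were.

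Other genes differed between genotypes without passing. Ndufa9, an accessory subunit near the ubiquinone site, had 885, 1017 and 1154 in knockout-labelled and 889.8, 776 and 843 in wild-type lungs after sham surgery (0.28 log2, adjusted p = 0.13). Cox5a had 2603, 3104 and 2944 in knockout-labelled and 2530.1, 2229.5 and 2677 in wild-type lungs after sham surgery (0.22, adjusted p = 0.16). Of its other probe sets, 1 was called there (0.27, adjusted p = 0.046), while another gave 0.18 (adjusted p = 0.19). Sdhc had 668, 619.6 and 463 in knockout-labelled CLP against 689, 608 and 625 in wild-type CLP (-0.15, adjusted p = 0.46). After CLP, probe sets other than the brightest were called higher for Ndufa3 (0.30, adjusted p = 0.046) and Uqcrb (0.28, adjusted p = 0.034). A dim one was called lower for Sdha (-1.08, adjusted p = 0.038). The brightest probe sets of these genes gave 0.27, -0.04 and 0.04 without a call. At the other end, Ndufv1 differed by 0.02 after CLP and Ndufa1 by -0.00 after sham surgery, the smallest differences of complex I in each. In complexes III and V the smallest after CLP were those of Uqcrc1 (-0.02) and Atp5c1 (-0.00).

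Of 28 tested chain subunits outside the 45, 1 fell after CLP in knockout-labelled lungs (Ndufc1, -0.35, adjusted p = 0.016) and none rose, with a median of -0.04. Atp5g1, a gene of the proton-carrying ring of the ATP synthase, was called higher in knockout-labelled mice after both surgeries, by 0.43 after CLP (adjusted p = 0.0049) and 0.33 after sham surgery (adjusted p = 0.046). It had 627, 645 and 682 in knockout-labelled CLP against 483, 461 and 501 in wild-type CLP, though the mean of its probe sets gave -0.01 (adjusted p = 0.99). The call after sham surgery was kept in 3 of the 12 fits that left out an array, and was lost with centred arrays (adjusted p = 0.090), with only the groups compared (adjusted p = 0.10) and with averaged probe sets (adjusted p = 0.80). For CLP in wild-type lungs no gene of these subunits or of the lists below was called, apart from 9 neutrophil markers.

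Some subunits have isoforms restricted to muscle or other tissues, of which 7 were tested. In knockout-labelled lungs 4 of 7 fell after CLP: Cox8b (-0.91, adjusted p = 0.0025), Cox6a2 (-0.65, adjusted p = 0.021), Cox7a1 (-0.63, adjusted p = 0.025) and Cox6b2 (-0.51, adjusted p = 0.027), with a list median of -0.51. Of all probe sets, 18.8% fell there. Cox6a2, Cox7a1 and Cox8b are the heart and muscle forms of complex IV subunits, and Cox6b2 is best known from testis. Cox6a2 had 210.0, 333 and 288 in knockout-labelled CLP and 411, 512 and 377 in knockout-labelled sham. In the wild type it had 175, 166 and 243 after CLP and 219.8, 199 and 197 after sham surgery. The knockout-labelled sham arrays were the high ones, and the same 4 isoforms were higher in knockout-labelled than in wild-type mice after sham surgery, by 0.62 to 1.16 log2. In that comparison 4.48% of all probe sets were higher. Of these sham differences, those of Cox6a2 and Cox6b2 were called in all 12 fits that left out an array, while Cox7a1 (adjusted p = 0.05) and Cox8b (adjusted p = 0.046) were called in 3 and 4 of them. Both lost the call with centred arrays (adjusted p = 0.072 and 0.067), under quantile normalisation (0.058 and 0.054) and with only the groups compared (0.072 and 0.12). When the second knockout-labelled sham array was left out only Cox8b was called lower for CLP, and without array 1 or 2 of knockout-labelled CLP the count was 2.

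Cardiac muscle markers moved in the same direction as these isoforms for CLP in knockout-labelled lungs and between genotypes after sham surgery. Of 15 markers, 13 fell after CLP in knockout-labelled lungs (median -1.03) and 13 were higher in knockout-labelled than in wild-type mice after sham surgery (median 1.44). The shares of all probe sets were 18.8% for such falls and 4.48% for such higher levels. Between genotypes after CLP the isoforms had a median of -0.09 (1 of 7 higher, none lower), where 12.6% of all probe sets were higher. The cardiac markers had a median of 0.51 there (4 of 15 higher, none lower). Their summed signal was 5147 to 9629 in knockout-labelled CLP and 12165 to 19154 in knockout-labelled sham. In the wild type it was 4113 to 5044 after CLP and 4313 to 5073 after sham surgery, and no marker was at 0 on any array. Myh6, the atrial and adult heart myosin of the mouse, had 714, 865 and 1672 in knockout-labelled CLP and 1817, 2889 and 2079.9 in knockout-labelled sham, and Actc1, cardiac actin, had 1062, 1350.2 and 1688 after CLP and 2813, 3675 and 2342 after sham surgery. Skeletal muscle markers stayed low, with 2 of 9 tested and summed signals between 103 and 193 over all 12 arrays. The part of heart muscle transcripts in the result was not tested.

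Fatty acid oxidation feeds electrons to the chain. Of its 17 genes, 10 fell after CLP in knockout-labelled lungs and none rose, where 18.8% of all probe sets fell, with a median of -0.29 and all 17 negative. Hadh, a dehydrogenase of short chains, had 1585, 1239 and 888 in knockout-labelled CLP and 1963, 2029.9 and 1844 in knockout-labelled sham (-0.69 log2, adjusted p = 0.0061). In the wild type it had 1941, 1929 and 1907 after CLP and 1927, 1891 and 2179.6 after sham surgery. Acaa2, a thiolase, Acadm, the medium-chain acyl-CoA dehydrogenase, and Hadha, of the trifunctional protein, also fell (-0.53, -0.47 and -0.32 log2, adjusted p = 0.0041, 0.0051 and 0.017). Acaa2 had 651, 549 and 545 in knockout-labelled CLP and 799, 774 and 949 in knockout-labelled sham. The cardiac markers fell in the same comparison, with the sums given above, and their part in the result was not tested. Between genotypes after CLP, 4 of the 17 genes were lower in knockout-labelled mice and none higher, where 16.9% of all probe sets were lower. Of the 17, 6 had a positive difference. Hadh and Acaa2 were among those lower (-0.68 and -0.60 log2, adjusted p = 0.0065 and 0.0019). In place of the 10 falls after CLP in knockout-labelled lungs, the count was 3 with centred arrays and 1 when the model held only these 2 groups. It was 3 without array 2 of knockout-labelled CLP, 4 without array 3 of it and 5 without array 3 of the matching sham group. It was 6 when array 1 or 2 of that sham group, array 1 or 2 of wild-type CLP or array 3 of wild-type sham was left out.

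**Figure D4:**
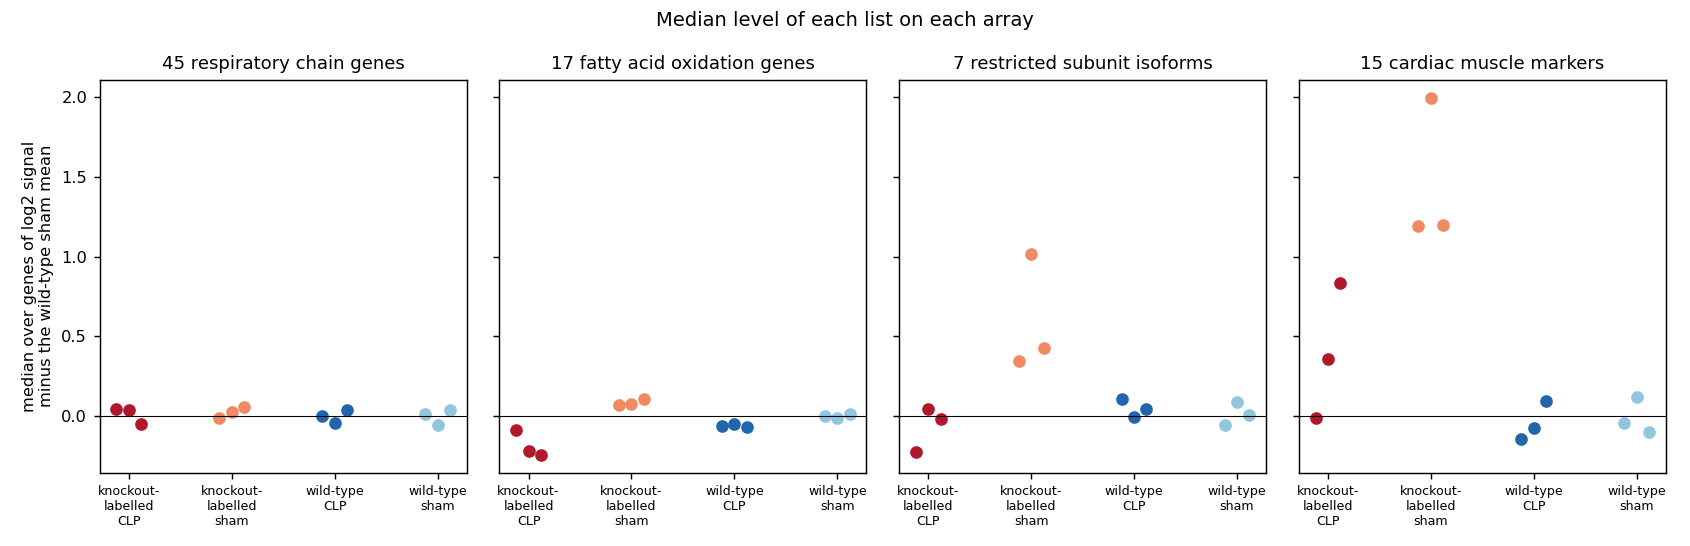
Median over genes of log2 signal relative to the wild-type sham mean, 1 point per array, for the 45 respiratory chain genes and 3 other lists. The respiratory chain genes stay within -0.05 and 0.06 on all arrays, while the restricted isoforms and cardiac markers are highest on the 3 knockout-labelled sham arrays.

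Of 33 assembly factors, which build the complexes without being part of them, 6 fell after CLP in knockout-labelled lungs and none rose. Their median was -0.13, close to the -0.12 of all probe sets, of which 10.4% rose and 18.8% fell. The counts of the lists that follow are for the same comparison and stand beside the same shares. Sco2, which delivers copper to complex IV, had 57.2, 41.5 and 61.4 in knockout-labelled CLP and 121, 136 and 99.7 in knockout-labelled sham. In the wild type it had 55.9, 66.7 and 57.9 after CLP and 60.7, 50.8 and 56.0 after sham surgery. It fell by 1.11 log2 in knockout-labelled lungs (adjusted p = 0.0011). The knockout-labelled sham arrays were the high ones. Coa3 and Surf1, which help to build complex IV, and Uqcc2, which helps to build complex III, also fell (-0.54, -0.45 and -0.52 log2, adjusted p = 0.0039, 0.019 and 0.0087).

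Of 20 regulators of mitochondrial biogenesis, 1 rose and 4 fell. Ppargc1a, the coactivator PGC-1alpha, had 56.4, 39.6 and 18.8 in knockout-labelled CLP and 69.6, 107 and 63.6 in knockout-labelled sham. In the wild type it had 52.6, 68.6 and 77.9 after CLP and 72.4, 74.6 and 54.5 after sham surgery. The knockout-labelled groups did not overlap, and it fell (-1.08 log2, adjusted p = 0.024). Tfb1m, the methyltransferase of mitochondrial ribosomal RNA, and Ssbp1, which coats single-stranded mitochondrial DNA, fell (-1.19 and -0.38 log2, adjusted p = 0.0017 and 0.022). Gabpb1, a subunit of GABP, rose by 0.56 (adjusted p = 0.024). For CLP in knockout-labelled lungs, the factors whose letters were sought in the promoters did not pass: Nrf1 gave -0.26 (adjusted p = 0.38), Yy1 -0.02 (adjusted p = 0.89), Gabpa -0.14 (adjusted p = 0.44) and Esrra -0.21 (adjusted p = 0.37). Gabpa was lower in knockout-labelled than in wild-type lungs after CLP (-0.41, adjusted p = 0.032), a call kept in 7 of the 12 fits that left out an array.

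In the citric acid cycle, 1 of 17 genes rose and 3 fell. Dld, the dehydrogenase shared by the pyruvate and oxoglutarate complexes, rose by 0.45 (adjusted p = 0.0027, and 0.51 with averaged probe sets), with 537, 568 and 566 in knockout-labelled CLP and 425, 408 and 384 in knockout-labelled sham. Idh2, Ogdh and Idh3b, dehydrogenases of the cycle, fell (-0.42, -0.38 and -0.30 log2, adjusted p = 0.0091, 0.014 and 0.021). Among 13 carriers and related genes of the inner membrane 2 rose and 4 fell. Of the ADP/ATP carriers, Slc25a5, the widespread form, rose by 0.34 (adjusted p = 0.0092), and Slc25a4, the heart and muscle form, fell by 0.29 (adjusted p = 0.0047). Slc25a5 had 3533, 3554 and 3782 in knockout-labelled CLP and 2806, 2685 and 3123 in knockout-labelled sham, and Slc25a4 had 2023, 1933 and 1885 after CLP and 2344, 2404 and 2379 after sham surgery. Under quantile normalisation the rise of Slc25a5 was 0.21 (adjusted p = 0.051). With centred arrays the change of Slc25a4 was -0.16 (adjusted p = 0.075), and with averaged probe sets it was not called (adjusted p = 0.11). Pdk2, a kinase that restrains pyruvate entry, fell by 0.70 (adjusted p = 0.0028).

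Of 38 mitochondrial ribosome genes 4 rose and 6 fell, and the smallest p-values were those of Mrpl24 (-0.52, adjusted p = 0.0017), Mrps25 (-0.75, adjusted p = 0.0034), Mrps12 (-0.48, adjusted p = 0.0037) and Mrpl45 (0.79, adjusted p = 0.0047). Of 11 genes of mitochondrial shape and mitophagy 1 rose (Fis1, 0.27, adjusted p = 0.041, called in 4 of the 12 fits that left out an array) and 3 fell, among them Fundc1 (-0.44, adjusted p = 0.011). Pink1, a kinase that marks damaged mitochondria, did not pass for CLP but was higher in knockout-labelled than in wild-type mice after CLP (0.80, adjusted p = 7.9e-04) and after sham surgery (0.94, adjusted p = 5.4e-04). It had 713, 691 and 625 in knockout-labelled CLP and 377, 398 and 383 in wild-type CLP.

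Markers of other cells moved in the comparisons above, between genotypes too. Their counts stand beside these shares of all probe sets. After CLP, 10.4% rose and 18.8% fell in knockout-labelled lungs, and 0.814% rose and 0.134% fell in wild-type lungs. Between genotypes, 12.6% were higher and 16.9% lower after CLP, and 4.48% were higher and 3.86% lower after sham surgery. Brown fat markers were higher for 2 of 3 tested genes in knockout-labelled than in wild-type mice after each surgery. For CLP in knockout-labelled lungs 1 of 3 rose and none fell. The summed signal of 5 such genes was 342 to 468 in knockout-labelled CLP and 191 to 273 in knockout-labelled sham. In the wild type that sum was 142 to 172 after CLP and 112 to 152 after sham surgery. White fat markers were lower for 2 of 3 tested genes in knockout-labelled than in wild-type mice after CLP, and for none after sham surgery. For CLP in knockout-labelled lungs 1 of 3 fell. The summed signal of 4 such genes was 76.5 to 110 in knockout-labelled CLP and 132 to 199 in knockout-labelled sham. Wild-type lungs gave 215 to 283 after CLP and 228 to 265 after sham surgery. Neutrophil markers rose for 10 of 12 genes in knockout-labelled lungs and 9 of 12 in wild-type lungs. Their summed signal was 45455 to 50936 in knockout-labelled CLP and 10984 to 27006 in knockout-labelled sham, while in the wild type it was 36360 to 40596 after CLP and 9891 to 16404 after sham surgery. Endothelial markers fell for 5 of 10 genes in knockout-labelled lungs and for none in wild-type lungs. Their summed signal was 11873 to 13685 in knockout-labelled CLP and 14141 to 14725 in knockout-labelled sham, while in the wild type it was 16533 to 17265 after CLP and 16670 to 17874 after sham surgery. They were also lower for 5 of 10 genes in knockout-labelled than in wild-type mice after CLP. Alveolar macrophage markers were higher for 6 of 10 genes and lower for 1 in knockout-labelled than in wild-type mice after CLP (median 1.05 log2), and 3 of 10 rose after CLP in knockout-labelled lungs. Their summed signal was 15066 to 16113 in knockout-labelled CLP and 7739 to 16046 in knockout-labelled sham, while in the wild type it was 8180 to 8555 after CLP and 8520 to 8825 after sham surgery. Alveolar type 2 markers were lower for 3 of 9 genes in knockout-labelled than in wild-type mice after CLP (Sftpb, Sftpc and Abca3). After sham surgery 2 of 9 were lower and 1 higher, and after CLP in knockout-labelled lungs 1 of 9 fell. Their summed signal was 44556 to 51185 in knockout-labelled CLP and 44983 to 48311 in knockout-labelled sham. In the wild type it was 49127 to 49985 after CLP and 49206 to 51009 after sham surgery. Of 10 tested ciliated cell markers 3 fell after CLP in knockout-labelled lungs, with summed signals of 4339 to 5384 in knockout-labelled CLP and 4476 to 7161 in knockout-labelled sham, while the wild type gave 5367 to 6031 after CLP and 5859 to 6151 after sham surgery. The ratio of 3-prime to 5-prime signal of beta-actin, a measure of RNA quality, was 1.28 to 1.45 in knockout-labelled CLP and 1.47 to 1.59 in knockout-labelled sham, while in the wild type it was 1.47 to 1.63 after CLP and 1.49 to 1.53 after sham surgery. Every knockout-labelled CLP array was thus below every array of the other groups in this ratio. The same ratio of Gapdh was 0.678 to 0.843 in knockout-labelled CLP and 0.729 to 0.799 in knockout-labelled sham, while in the wild type it was 0.857 to 0.913 after CLP and 0.800 to 0.832 after sham surgery, so that the 2 CLP groups did not overlap. Their part in the results above was not tested.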

How the data were processed

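The deposited values are linear signal intensities of 45101 probe sets on 12 arrays. The submitters' processing notes list the Affymetrix Expression Console, MAS5 and GCOS, giving neither versions nor the part each played. The trimmed mean signal was 150 on every array, and array medians ran from 31.1 to 38.4. After 64 control probe sets were left out, log2 of the signal plus 3.47 (10% of the median of array medians, 34.7) was used, which understates the change of dim genes. Testing required a signal above the array's median on at least 3 of 12 arrays (24574). Genes were named from the platform table (34945 probe sets with 1 symbol, 932 with several, 9160 with none), and 34741 were matched to RefSeq (GRCm38.p6). limma 3.58.1 in R 4.3.3 fitted 4 group means with an intensity trend, and p-values were adjusted by Benjamini-Hochberg over all probe sets tested within each comparison, for a call at an adjusted p under 0.05. The fit was tested on simulated data. The number of arrays limits the precision.

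The members and lists were chosen with earlier results of these data known. Named are, per complex and comparison, up to 3 called genes with the smallest p, the largest change against the complex's median and the smallest change. From other lists up to 4 called genes with the smallest p are named. For other cell types the first 2 markers may be named. Genes outside this rule (such as Ndufa10, Ndufs1, Ndufs3, Uqcrq, Cox4i1, Atp5d, Nrf1, Yy1 and Esrra) were chosen after their values were seen. Alternatives were quantile normalisation, centring, a pseudocount of 50% of the median, no filter, array weights, a replicate block, only the groups compared, cross-hybridising probe sets left out, averaged probe sets per gene, and leaving out arrays in turn. For fatty acid oxidation, restricted isoforms, cardiac markers and single genes they were added after seeing the data.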

Additional observations from a re-analysis of the deposited data

Results flagged for a closer look

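The difference between the responses to CLP in both genotypes was called in limma's test of the difference itself for 3 of 184 tested genes of the related lists and 2 of 15 cardiac markers, against 4.05% of all probe sets, with the response in knockout-labelled lungs minus that in wild-type lungs given here on the log2 scale. Cox8b, the muscle form of a complex IV subunit, differed by -1.04 (adjusted p = 0.036), with -0.91 in knockout-labelled and 0.14 in wild-type lungs. Sco2, the copper carrier of complex IV assembly, differed by -1.21 (adjusted p = 0.027), with -1.11 in knockout-labelled and 0.10 in wild-type lungs. Dld differed by 0.58 (adjusted p = 0.029), with 0.45 in knockout-labelled and -0.12 in wild-type lungs, though the mean of its probe sets was not called (adjusted p = 0.65). The cardiac markers Actc1 and Ckmt2 differed by -1.03 and -1.37 (adjusted p = 0.036 and 0.047). Each of the 5 was called in 3 or 4 of the 12 fits that left out an array, and the highest adjusted p was 0.13. Among 67 tested markers of other cells, 8 were called: Ngp (2.48), Camp (3.40), Ltf (2.03) and Mmp9 (-0.91) of neutrophils, Abca3 (-0.58) of alveolar type 2 cells, Tekt4 (-1.45) and Ccdc39 (-1.61) of ciliated cells, and Adipoq (-1.55) of white fat. Those outside the naming rule are named here after their values were seen. Cox8b and Sco2 had their highest signals on the knockout-labelled sham arrays, as the summed cardiac markers did, and the part of heart muscle transcripts was not tested.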

How the results depend on the processing

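Of the 3 rises and 2 falls after CLP in knockout-labelled lungs, the rises became 0 under quantile normalisation, without a filter, with only the groups compared and with averaged probe sets, 6 with array weights and 11 with centred arrays. The falls became 7 under quantile normalisation, 1 with centred arrays, 0 with only the groups compared and 1 without cross-hybridising probe sets. The median of the 45 genes was -0.12 under quantile normalisation and 0.12 with centred arrays. With 1 array left out, rises ran from 0 to 5, falls from 1 to 5 and the median from -0.04 to 0.02. In wild-type lungs all alternatives gave 0 calls, and with an array left out the median ran from -0.03 to 0.02. The difference of responses gave 2 higher and 1 lower with array weights and a median of 0.083 with centred arrays. With an array left out it gave 0 to 1 in each direction and a median from -0.04 to 0.04. Between genotypes after CLP, array weights gave 5 higher. With an array left out, 1 to 4 were higher, 0 to 4 lower and the median ran from -0.03 to 0.04. After sham surgery, quantile normalisation, array weights and averaged probe sets each gave 1 higher, while centring and array weights gave 2 lower and the removal of cross-hybridising probe sets gave 1 lower. With an array left out these counts ran from 0 to 1 and from 0 to 2, and the median from -0.04 to 0.03.

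The 10 falls in fatty acid oxidation became 3 with centred arrays, 5 without a filter, 6 with the replicate block and 1 with only the groups compared (3 to 10 with an array left out). The 4 falls among restricted isoforms became 2 under quantile normalisation, 1 with centred arrays and 1 with only the groups compared (1 to 5 with an array left out). With averaged probe sets 4 single values changed sign: Ndufs4 gave -0.061 for CLP in knockout-labelled lungs and -0.13 between genotypes after CLP, Atp5g1 gave -0.0059 between genotypes after CLP, and Mrps10 gave 0.26 between genotypes after sham surgery. Of 43 called values of single genes outside the 45 for CLP in knockout-labelled lungs, 22 were called in all fits that left out an array, 23 with centred arrays, 37 under quantile normalisation and 11 with only the groups compared. The cause was not tested.

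The labels do not say what the replicate numbers stand for. Deviations of arrays with the same number correlated between -0.10 and 0.12. Among the arrays of the other groups, 7 of 12 arrays correlated best with an array of their own number. Whether the numbers mark pairs or batches was not tested. With the replicate number as a block, 2 of the 45 genes rose and 2 fell after CLP in knockout-labelled lungs, and between genotypes after CLP 3 were higher and 3 lower.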
